A study of Homo sapiens with 4 samples.

Results

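The 9 genes described here encode components of the complement cascade and the proteins that hold it in check: C3, C5, CFB, C1R, C1S, CD46, CD55, CD59 and SERPING1. They were chosen by symbol, with earlier results of these data known, so shares of members called beside those of all genes are a description only. They are 9 of the 23340 gene symbols in a table of raw counts, and 7 of the 9 had enough counts to be tested. The counts come from poly-A+ RNA of A549 cells, a human lung carcinoma line of epithelial origin, in 4 libraries. WT 1 and WT 2 are wild-type cells, and clones 4 and 5 are NOCT-KO lines in which CRISPR-Cas9, delivered by lentivirus, was aimed at NOCT, the gene of the NADPH phosphatase nocturnin. Each clone grew from a single cell after puromycin selection and is represented by 1 library. No source used here says whether the WT cells passed through virus, drug and cloning, so the genotype and these steps cannot be told apart, and the WT libraries are described as separate experiments with no word on separate cultures, so p-values measure only the spread between these libraries.

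Complement is a chain of plasma proteases that marks and lyses targets. In the classical pathway C1q carries the proteases C1r and C1s, and C1s opens the way to cleavage of C3. In the alternative pathway factor B, the product of CFB, binds to C3 fragments and becomes the protease that cuts more C3. C3 fragments coat the target, and cleavage of C5 starts the pore of the terminal pathway. Cells guard themselves with CD46, a cofactor for the inactivation of C3b and C4b, with CD55, which dissociates the convertases, and with CD59, which blocks assembly of the pore, while C1 inhibitor, the product of SERPING1, inactivates C1r and C1s. The liver makes most circulating complement, and epithelial cells make some components locally.

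The libraries held 36873556 to 41963070 counts. Values are given as CPM, counts scaled to a common library size with TMM factors, and the SD of the log2 ratio over 10047 genes was 0.18 between the WT libraries and 0.52 between the clones. NOCT, listed as CCRN4L, stood at 20.8, 20.1, 29.3 and 15.6 CPM in WT 1, WT 2, clone 4 and clone 5, so its transcript does not check the labels. The epithelial keratins KRT8 and KRT18 were abundant (721 to 1357 CPM), while EPCAM held 0 to 6 counts and KRT19 was listed at 0. Of other cell types, the leukocyte marker PTPRC was at 0 in every library, and the summed leukocyte list was 12.5, 12.6, 14.5 and 21.2 CPM in WT 1, WT 2, clone 4 and clone 5, nearly all of it CD68. The summed fibroblast list was 28.6, 23.7, 7.66 and 14.2 CPM in the same order, nearly all of it LUM, and the summed hepatocyte list was at most 0.285 CPM. Their part in the values of the members was not tested. In bulk RNA, fewer cells that express a gene and less of its RNA per cell cannot be told apart.

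When the clones were pooled, none of the 7 tested genes passed the threshold between WT and NOCT-KO. edgeR, run with its quasi-likelihood test and p-values adjusted by the Benjamini-Hochberg method, called 0% of 13143 genes at 0.05, as did limma-voom, whereas DESeq2 called 42 genes and no member. At an unadjusted p under 0.05 there were 553 genes, among them C1S and CD59. Without the clone 5 library 4 members were called (C3, C1S, CD46 and CD55) among 1184 of 13503 genes, and without the clone 4 library 1 was called (CD59) among 363 of 13534. The clones differed from each other in 5 of the 7 genes, against 13.1% of all genes tested. Each clone was therefore set apart against the WT pair, in a fit whose spread comes from that pair over all genes and which assumes that a clone varies like it. The test draws the spread of each gene towards a trend over all genes, so errors and p-values do not rest on that gene alone. Against clone 4, the test called 4 of the 7 genes (C3, C1S, CD46 and CD55), all higher in the clone, beside 11.4% of all genes in either direction and 5.41% in that direction. CD46 and CD55 lie near each other on chromosome 1, where 32 and 34 of the 60 tested genes within 5 Mb of each were also called higher. The part of that region was not tested. Against clone 5, it called 2 of the 7 (CD59 higher and C3 lower in the clone), beside 3.51% of all genes. The median log2 ratio of WT over clone was -0.33 over the 7 genes for clone 4, where that of all genes was 0.011, and -0.017 for clone 5, where it was 0.0044. The comparisons of WT with either clone share the WT libraries.

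**Figure D1:**
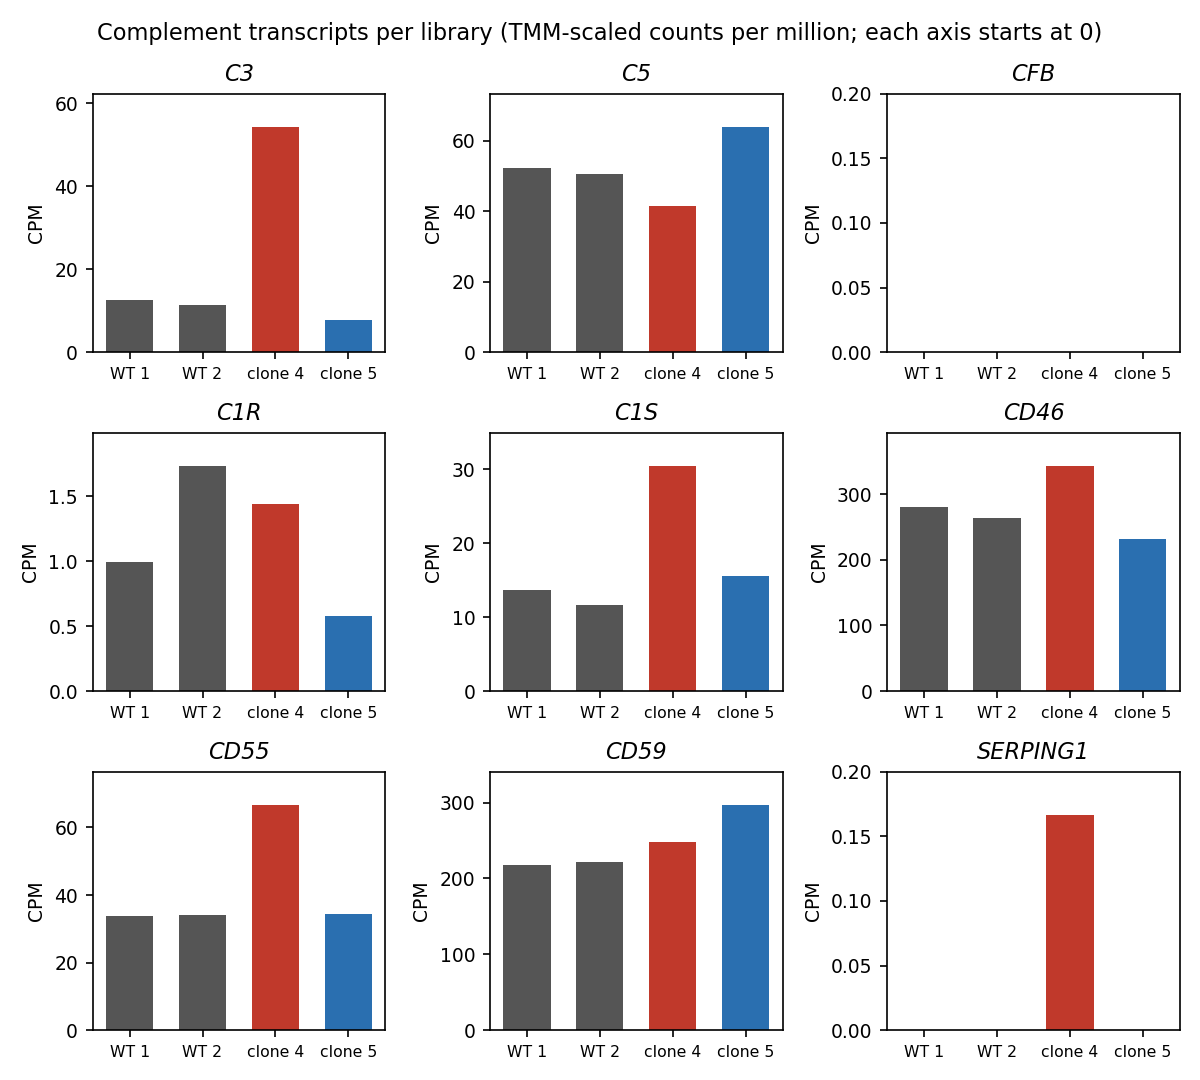
Level of each of the 9 genes in each library (bars, CPM on a linear axis from 0, 1 panel per gene with its own scale). The C3, C1S and CD55 bars are tallest in clone 4, the CD59 bar is tallest in clone 5, and CFB is listed at 0 in all 4 libraries.

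C3, the component on which all pathways meet, had the widest range of the 9 genes. It was counted 526 and 472 times in WT 1 and WT 2, 1956 times in clone 4 and 318 times in clone 5, or 12.5, 11.4, 54.3 and 7.65 CPM. Clone 4 stood above both WT libraries and clone 5 below both. C3 was 4.55-fold higher in clone 4 than in the WT mean of 11.9 ± 0.79 CPM (SD, n = 2), with a log2 ratio of WT over clone 4 of -2.19 (standard error, SE, of 0.14 and edgeR adjusted p = 1.4e-07). In clone 5 it was 0.642 of the WT mean, a log2 ratio of WT over clone 5 of 0.64 (edgeR adjusted p = 0.047 at an SE of 0.16). That second call did not hold under DESeq2 (adjusted p = 0.137), limma-voom (0.128) or a fit without the clone 4 library (0.119), and its adjusted p ranged from 0.0349 to 0.283 over the alternatives. Between the clones C3 differed 7.10-fold, a log2 ratio of clone 4 over clone 5 of 2.83 (edgeR adjusted p = 1.4e-07 at an SE of 0.18). With the clones pooled, the opposite directions left a log2 ratio of WT over NOCT-KO of -1.38 with a standard error of 0.83 (adjusted p = 0.971 from edgeR), and the NOCT-KO mean of 31.0 CPM carried an SD of 33.0 CPM (n = 2).

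C3 lies on chromosome 19 of hg19, on the minus strand from 6677715 to 6730573. Of 191 tested genes within 5 Mb of it, none had a log2 ratio of WT over clone 4 below that of C3, and their median was -0.025. GPR108, which overlaps C3 on the same strand, stood at 8.68, 9.38, 12.6 and 10.4 CPM in WT 1, WT 2, clone 4 and clone 5 and was not called (adjusted p = 0.120 for WT over clone 4 from edgeR). Because the sources used here do not give the strand setting of the counting, reads may be shared by overlapping genes on either strand.

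C5, whose cleavage releases the C5a peptide and starts the terminal pathway, separated the clones in the other direction from C3. It was counted 2206, 2098, 1500 and 2656 times in WT 1, WT 2, clone 4 and clone 5, or 52.3, 50.5, 41.6 and 63.9 CPM. Clone 4 was the lowest and clone 5 the highest, with the WT pair between them. Neither clone passed the threshold against WT (log2 WT over clone 4 of 0.30, adjusted p = 0.105, and over clone 5 of -0.31, adjusted p = 0.159, from edgeR). The clones differed from each other 1.53-fold, a log2 ratio of clone 4 over clone 5 of -0.62 (edgeR adjusted p = 0.00464 at an SE of 0.13, and 0.0647 without the filter on low counts). C5 lies on chromosome 9 of hg19, on the minus strand from 123695265 to 123837473, where CNTRL, a centriole gene, overlaps it on the other strand at 28.4, 28.4, 30.7 and 25.2 CPM.

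The proteases C1R and C1S lie side by side on chromosome 12 of hg19, C1R on the minus strand from 7187513 to 7245203 and C1S on the plus strand from 7096351 to 7178336. C1S was counted 576 and 486 times in WT 1 and WT 2, 1096 times in clone 4 and 650 times in clone 5, or 13.7, 11.7, 30.4 and 15.6 CPM. Both clones stood above the WT pair, clone 4 by more. C1S was 2.40-fold higher in clone 4 than in WT (log2 WT over clone 4 of -1.26, SE 0.16, edgeR adjusted p = 0.000103). In clone 5 the log2 ratio of WT over clone was -0.30 (adjusted p = 0.409 at an SE of 0.16), and between the clones it was 0.96 (edgeR adjusted p = 0.00309 at an SE of 0.19, and 0.0698 without the filter on low counts).

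C1R, which cleaves C1s, was near the limit of the counts. It was counted 42, 72, 52 and 24 times in WT 1, WT 2, clone 4 and clone 5, or 0.996, 1.73, 1.44 and 0.577 CPM. The clone 4 value fell between the WT values, which themselves differed by 0.80 on the log2 scale. No comparison of C1R passed the threshold, and the lower counts left a wider error, with an SE for WT over clone 4 of 0.51 where that of C1S was 0.16.

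Around the C1R and C1S pair, 72 tested genes within 5 Mb had a median log2 ratio of WT over clone 4 of -0.030, and 1 of them was below C1S. LPCAT3, a phospholipid acyltransferase gene that overlaps C1S on the other strand, moved the same way between the clones: 26.1, 25.9, 34.4 and 20.7 CPM in WT 1, WT 2, clone 4 and clone 5. Its log2 ratio of clone 4 over clone 5 was 0.73 (adjusted p = 0.00589 from edgeR) and that of WT over clone 4 was -0.40 (adjusted p = 0.0678). Its part in the C1S values was not tested. C1RL, a relative of C1R that overlaps it on the same strand, ranged only from 13.5 to 14.5 CPM.

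**Figure D2:**
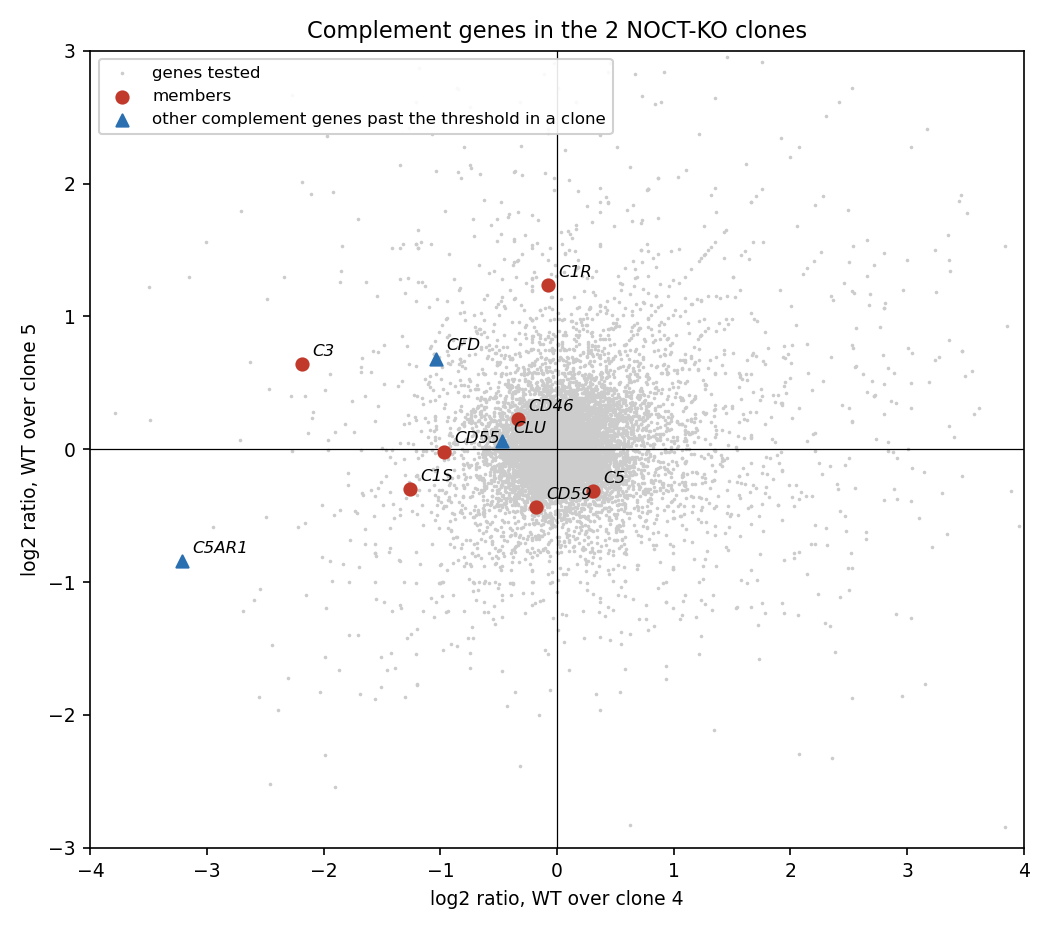
Log2 ratio of WT over clone 4 (x axis) against WT over clone 5 (y axis) for the genes tested (grey), the 7 tested members (circles) and CLU, CFD and C5AR1 (triangles). The 159 genes beyond the axis limits, SUSD4 among them, are not drawn. C3 lies at -2.19 on the x axis and 0.64 on the y axis, and C5AR1 at -3.21 on the x axis.

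CD46 and CD59 were the most abundant of the 9 genes in every library, and CD55 stood below C5 in all but clone 4. CD55, or decay-accelerating factor, was counted 1422 and 1420 times in WT 1 and WT 2, 2400 times in clone 4 and 1428 times in clone 5, or 33.7, 34.2, 66.6 and 34.3 CPM. The WT pair and clone 5 were nearly equal and clone 4 stood alone, 1.96-fold above WT. Its log2 ratio was -0.97 for WT over clone 4 (edgeR adjusted p = 6.0e-05 at an SE of 0.11) and -0.017 for WT over clone 5 (adjusted p = 0.965 at an SE of 0.12). Between the clones it was 0.96 (edgeR adjusted p = 0.000262 at an SE of 0.13).

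CD46, or membrane cofactor protein, was counted 11802, 10944, 12344 and 9644 times in WT 1, WT 2, clone 4 and clone 5, or 279.8, 263.3, 342.4 and 231.9 CPM. It was highest in clone 4 and lowest in clone 5. The 1.26-fold rise in clone 4 passed the threshold (log2 WT over clone 4 of -0.33, SE 0.085, edgeR adjusted p = 0.0204), but not with upper-quartile scaling (0.0603) or without a filter on low counts (0.126). WT over clone 5 did not pass (0.23, SE 0.087, adjusted p = 0.211), and the clones differed by a log2 ratio of 0.56 (edgeR adjusted p = 0.00165 at an SE of 0.10, and 0.0536 without the filter).

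CD46 and CD55 are near each other on chromosome 1 of hg19, both on the plus strand, CD55 from 207494864 to 207560149 and CD46 from 207925382 to 207968858. The genes around them were also higher in clone 4. Of 60 tested genes within 5 Mb of either, the median log2 ratio of WT over clone 4 was -0.48, and 34 around CD55 and 32 around CD46 were called higher in clone 4 against 1 called lower. For all 232 tested genes of chromosome 1 beyond 200 Mb it was -0.32, against 0.0090 for the 12579 tested genes with a position, and for WT over clone 5 it was 0.059. In WT over clone 4, 37 of the 60 neighbours lay below CD46 and 8 of 60 lay below CD55. Thus CD46 lay within the middle of its neighbourhood and CD55 beyond most of its own. The part of the region in either result was not tested.

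**Figure D3:**
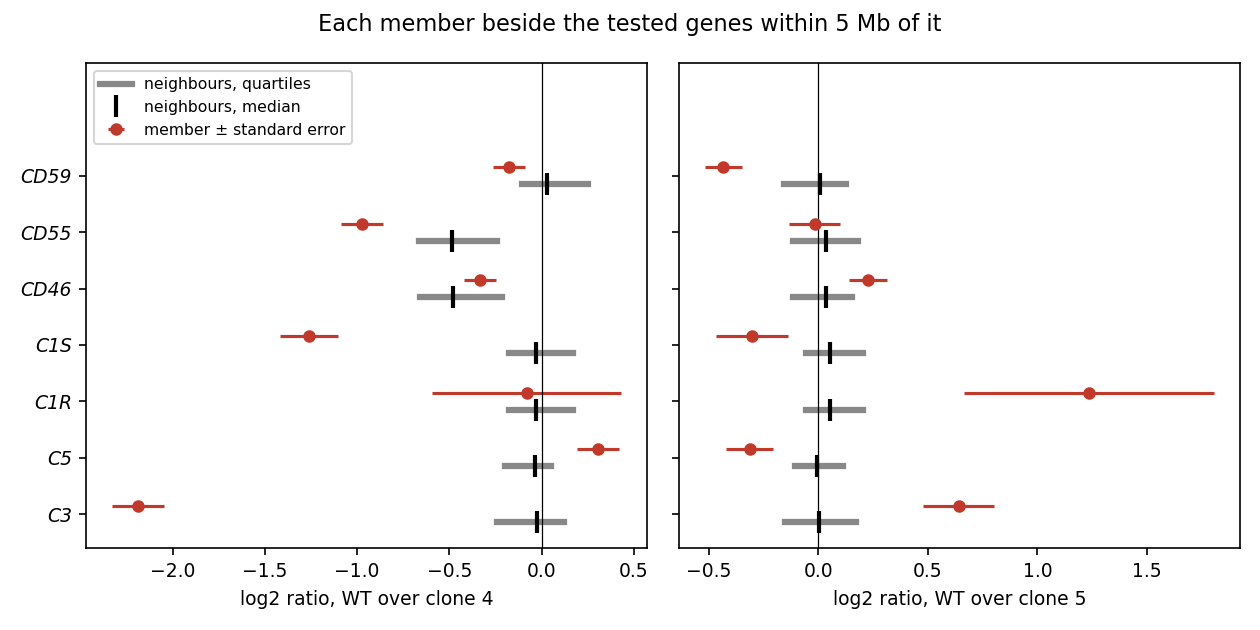
Log2 ratio of WT over clone 4 and of WT over clone 5 for each tested member (points, with the standard error as a line) beside the tested genes within 5 Mb of it (grey bars from the lower to the upper quartile, with the median as a tick). Around CD46 and CD55 the neighbours are centred on -0.48 for clone 4, whereas around C3 and C1S they are centred near 0.

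CD59, or protectin, was counted 9154 and 9220 times in WT 1 and WT 2, 8950 times in clone 4 and 12326 times in clone 5, or 217.1, 221.8, 248.3 and 296.4 CPM. Both clones stood above the WT pair, clone 5 by more. CD59 was 1.35-fold higher in clone 5 than in WT (log2 WT over clone 5 of -0.43, SE 0.085, edgeR adjusted p = 0.00958), a call lost without the filter on low counts (0.172). For clone 4 the log2 ratio was -0.18 (adjusted p = 0.226 at an SE of 0.086), and the clones did not pass the test against each other (-0.26, SE 0.10, adjusted p = 0.114). CD59 lies on chromosome 11 of hg19, on the minus strand from 33724556 to 33758025. Of 36 tested genes within 5 Mb, 2 lay below it in WT over clone 5, and their median was 0.0064.

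The promoters of the members were searched for 6 short motifs. Some are sites of factors that answer to cytokines, whereas CACGTG is the E-box and TATAAA the TATA box. RefSeq promoters on GRCh38.p14, matched by symbol for 6 of the 9 genes (CFB, C5, C1R, CD46, CD55 and CD59; C3, C1S and SERPING1 did not match), were searched on both strands over 300 bases for TTCNNNGAA, GAAANNGAA, GGGNNTTCC, TTGNNCAA, CACGTG and TATAAA, and no matches in the members overlapped. These motifs were held by 7.66%, 8.11%, 6.58%, 5.55%, 7.26% and 11.5% of 35116 promoters. CD55, called in clone 4, and CD59, called in clone 5, are shown because, among the members only, they were the membrane regulators with the largest change in each clone. Each sequence is the 250 bases before the annotated start, 5′ to 3′ on the strand of the gene, with the matches in capitals.
CD55, chr1:207321428-207321677, plus strand: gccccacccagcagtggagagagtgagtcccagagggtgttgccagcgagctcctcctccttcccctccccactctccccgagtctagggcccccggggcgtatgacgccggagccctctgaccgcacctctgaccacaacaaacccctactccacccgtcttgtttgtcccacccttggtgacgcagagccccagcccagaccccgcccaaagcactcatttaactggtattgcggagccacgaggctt
CD59, chr11:33736480-33736729, minus strand: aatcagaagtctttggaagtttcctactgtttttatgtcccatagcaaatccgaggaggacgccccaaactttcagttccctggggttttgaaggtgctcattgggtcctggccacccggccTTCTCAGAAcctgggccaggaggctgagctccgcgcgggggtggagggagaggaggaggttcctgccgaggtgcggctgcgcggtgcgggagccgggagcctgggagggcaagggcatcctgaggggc
The CD55 promoter held none of the 6 motifs, and neither did the promoters of CD46 and C5. CD59 has 4 listed starts, and the one shown is the farthest upstream. Its capitals mark a match to TTCNNNGAA, a form found in cytokine-responsive promoters, from position -128 to -120 relative to the start. The next start, whose window overlaps this one, held the same match, and the other two CD59 starts did not hold that form, although one of them matched TTGNNCAA. The promoter of CFB and 1 of 2 listed for C1R also held TTCNNNGAA. Over the 300 bases the CD59 promoters were 64.3%, 69.0%, 44.3% and 51.0% G or C, on both sides of the median promoter at 58.7%. A match is a property of the letters alone.

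CFB was listed at 0 in all 4 libraries. It lies on chromosome 6 of hg19, on the plus strand from 31913427 to 31919863, within the class III region of the major histocompatibility complex, beside C2 and the C4 genes, and C2, C4A and C4B were also listed at 0. So were genes there that nearly every cell uses: DDX39B, VARS, LSM2, CLIC1 and RDBP, which were picked after their values were seen, held 0 counts in every library, and BAG6 held 0, 4, 0 and 0 counts in WT 1, WT 2, clone 4 and clone 5. CSNK2B in the same stretch held 54 to 104 counts. Within 1 Mb of CFB, 72 of 89 coding genes (80.9%) were listed at 0 in all libraries, compared with 4875 of 18746 coding genes (26.0%) over the genome. The zeros of CFB, C2, C4A and C4B are therefore given as listed values, without a limit on expression.

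**Figure D4:**
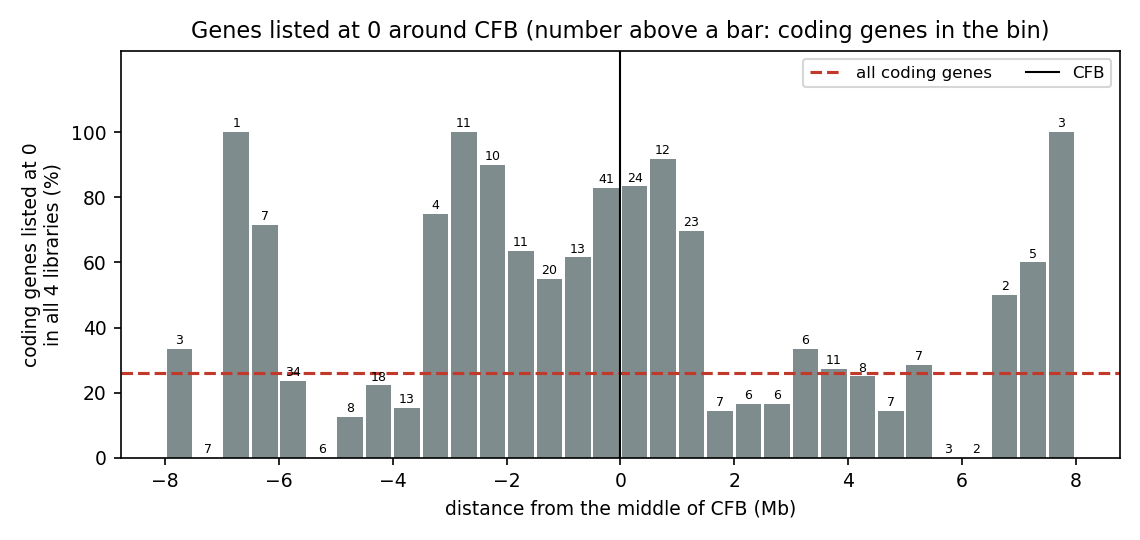
Percent of coding genes listed at 0 in all 4 libraries (bars, bins of 0.5 Mb) against distance from the middle of CFB in Mb, with the number of coding genes above each bar and a line at the genome value of 26.0%. In the bins on either side of CFB the share is 82.9% and 83.3%.

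SERPING1, the gene of C1 inhibitor, held 0 counts in both WT libraries and in clone 5 and 6 counts in clone 4 (0.166 CPM). It was not tested. A count of 0 allows up to 3 counts by counting error if each count is an independent fragment. This is 0.0711, 0.0721 and 0.0722 CPM in WT 1, clone 5 and WT 2. Most counts were even and may number read ends, and these limits would then be too low. SERPING1 lies on chromosome 11 of hg19, on the plus strand from 57364860 to 57386644, where 7 of 23 coding genes within 0.5 Mb (30.4%) and 25 of 43 within 1 Mb (58.1%) were listed at 0 in all libraries. Its targets C1R and C1S, by contrast, were counted in every library.

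For a comparison of levels between genes, CPM were divided by the length of the annotated exons in kb. In WT the mean per kb was 20.8 CPM for CD59, 17.5 for CD46, 3.31 for CD55, 3.04 for C5, 1.53 for C1S, 1.03 for C3 and 0.290 for C1R. Dividing by the longest transcript instead gave 28.4 for CD59, 34.7 for CD46, 8.97 for CD55, 5.64 for C5, 2.18 for C1S, 2.28 for C3 and 0.646 for C1R, so the order of CD59 and CD46 and that of C1S and C3 rest on the length used. By the longest transcript CD55 stood well above C5 in WT (8.97 and 5.64). By annotated exons CD55 and C5 stood close there, and their order reversed in clone 5 (3.35 and 3.78 CPM per kb), a reversal that rests on the length used. In clone 4, C3 reached 4.69 and C1S 3.67 CPM per kb, both above C5 at 2.46. C3 moved from the 20.9 and 19.9 percentiles of tested genes in WT 1 and WT 2 to 47.0 in clone 4 and 16.0 in clone 5, and CD59 lay between 82.3 and 87.4 in all libraries.

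**Figure D5:**
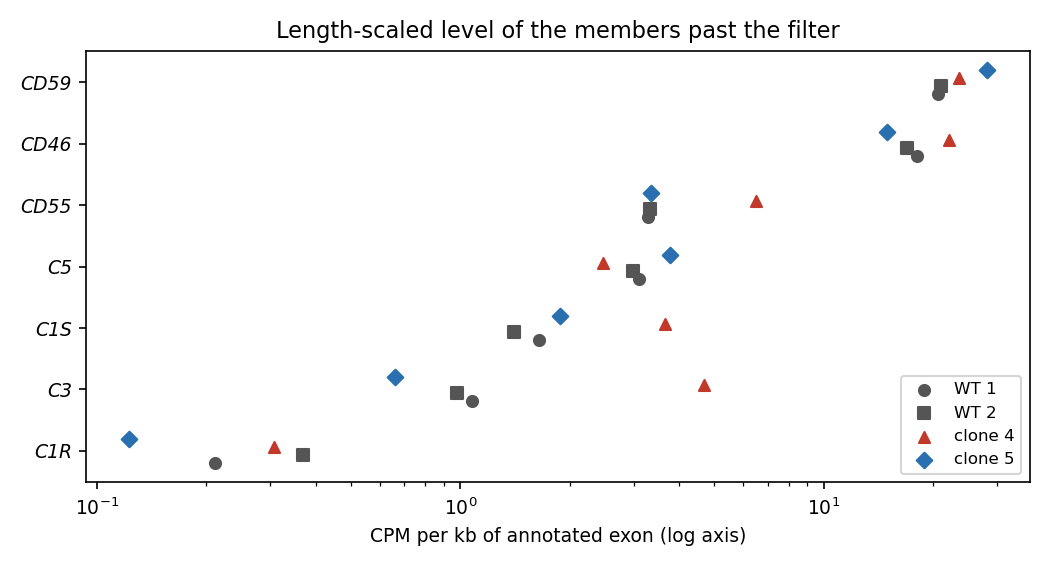
Length-scaled level of the members in each library (points, CPM per kb of annotated exon, log axis; CFB and SERPING1, which were not tested, are not drawn). The membrane regulators CD59 and CD46 are highest throughout, and C3 spans 0.661 in clone 5 to 4.69 in clone 4.

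Most of the rest of the complement system did not have enough counts to be tested. Of 48 further complement genes, 27 were listed at 0 in all libraries and 13 were tested. The 27 include C2, C4A and C4B, whose zeros are given without a limit on expression. None of the 8 lectin pathway genes and none of the 6 further terminal pathway genes had enough counts, and C1QA, C1QB and C1QC, which encode the recognition subunits that C1r and C1s bind, were all at 0. Of the 13 tested, 4 were called between WT and clone 4 (3 higher and 1 lower in the clone), beside 11.4% of all genes. The 1 lower is SUSD4, which passed the filter on low counts only through the WT pair, where it was high. None was called between WT and clone 5, beside 3.51%. Between the clones 3 were called, all higher in clone 4, beside 13.1%. C1QBP, a mostly mitochondrial protein named for binding C1q, was the most abundant at 745 to 777 CPM and was called in no comparison.

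C5AR1, a receptor for the C5a peptide, stood at 1.61, 1.44, 14.2 and 2.74 CPM in WT 1, WT 2, clone 4 and clone 5. Its log2 ratio of WT over clone 4 was -3.21 (edgeR adjusted p = 8.5e-07 at an SE of 0.25), and that of clone 4 over clone 5 was 2.37 (edgeR adjusted p = 8.0e-05 at an SE of 0.29). CLU, whose product clusterin binds the forming pore, was at 220.0, 224.6, 307.6 and 213.0 CPM and rose in clone 4 (log2 WT over clone 4 of -0.47, SE 0.085, edgeR adjusted p = 0.00231, and 0.0554 without the filter on low counts). CFD, the protease that cuts factor B, was at 2.37, 2.26, 4.77 and 1.44 CPM (log2 WT over clone 4 of -1.04, adjusted p = 0.0459 from edgeR, and 0.332 by DESeq2). SUSD4, a membrane regulator, held 12, 24, 0 and 2 counts (adjusted p = 0.0452 for WT over clone 4 from edgeR). It passed the filter on low counts only through the WT pair, so this call depends on the filter and is a description only. The call was lost with upper-quartile scaling, with a filter set by 3 groups, without the filter and without the clone 5 library.

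Complement genes are known to respond to interleukin-6, oncostatin M, interferon and NF-κB, and 23 of 24 genes of these signals and of liver-type transcription factors were tested. Against clone 4, 5 were called higher in the clone (IL6R, OSMR, STAT3, CEBPB and NFKBIA) and 1 lower (HNF4A), 6 of 23 where 11.4% of all genes were called. Against clone 5, 1 of 23 was called (IL6R, higher in the clone), where 3.51% of all genes were, and IL6R was the one gene of this list past the threshold in both clones, at 38.9, 39.5, 55.0 and 53.8 CPM in WT 1, WT 2, clone 4 and clone 5. CEBPB, an acute-phase factor, stood at 58.1, 69.4, 113.0 and 65.6 CPM, highest in clone 4. The keratins KRT8 and KRT18 were also higher in clone 4 than in WT (log2 WT over clone 4 of -0.64 and -0.47, adjusted p = 0.000113 and 0.000465 from edgeR), and CDH1, the E-cadherin gene of the same marker list, was lower there at 16.4, 18.4, 11.2 and 15.8 CPM (0.63, adjusted p = 0.0290 from edgeR). KRT18 was lower in clone 5 than in WT, also past the threshold (log2 WT over clone 5 of 0.28). The fibroblast marker LUM passed the threshold as lower in both clones (log2 WT over clone 4 of 1.78 and over clone 5 of 0.88). The part of these markers in the differences was not tested.

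The genes whose levels followed each of the 3 widest-ranging members most closely were found by the distance between centred log2 CPM over the 4 libraries, among 10041 genes whose mean reached 5 CPM. For C3 they were UNC13D, C15orf48 and TUBAL3, at distances of 0.39, 0.36 and 0.41. UNC13D, which acts in the release of cytotoxic granules, stood at 10.3, 12.6, 63.4 and 8.37 CPM in WT 1, WT 2, clone 4 and clone 5. For C1R, which ranged by 1.59 on the log2 scale at low counts, they were SLC29A4, NRG4 and MALAT1, at distances of 0.28, 0.30 and 0.36. For C1S they were FAM89A, C8orf83 and SLC40A1, the last of which encodes the iron exporter ferroportin, at distances of 0.13 to 0.17. The range of C3 over the libraries was 2.83 on the log2 scale, and 0.577% of 10047 genes had a wider one, compared with 2.06% for C1S, 4.50% for CD55, 13.7% for C5, 17.4% for CD46 and 26.7% for CD59. These distances rest on 4 libraries and are a description only.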

How the data were processed

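Poly-A+ RNA of A549 cells was sequenced in 4 libraries. Raw gene counts, not normalized, were deposited as 1 table by the authors. They were mapped to hg19, TopHat2 and HTSeq are named in the submitters' processing notes, and the sources used here give no version, annotation or strand setting. Dates stand where a symbol should on 28 of 23368 lines (0.274% of counts), which were left out. Among nonzero counts 99.1% to 99.2% per library were even, so counts may number read ends rather than fragments, and halved counts were an alternative. 0 columns were left aside.

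Genes were filtered by edgeR's filterByExpr (minimum count 10, minimum total 15), given TMM factors and tested with edgeR 4.0.16 (quasi-likelihood, Benjamini-Hochberg, 0.05) under R 4.3.3. DESeq2 1.42.0 and limma-voom (limma 3.58.1) served as alternatives. WT against NOCT-KO had 2 residual degrees of freedom. Clone comparisons used 3 groups, which left 1 residual degree. The biological coefficient of variation was 19.7% and 8.33%. Halved counts of WT 1 and WT 2 gave a chi-square of 11.7 per gene, so they are not 1 library listed in 2 columns. The scripts were tested on simulated data. Positions come from GENCODE lifted to hg19: 19556 symbols matched as given and 1908 through an older symbol. The descriptions used numpy 2.4.6, pandas 2.3.3 and matplotlib 3.10.9 under Python 3.11.15. Intervals and limits from 0 counts cover counting error only.

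The members, the lists of other complement, signal and marker genes, and the rule for named genes were chosen with earlier results of these data known. Named genes are the 9 members, the other complement genes past the threshold in a clone comparison or with a mean of at least 5 CPM, and the 3 genes (mean CPM of 5 or more) nearest in pattern to each of the 3 widest-ranging members. Of the signal and marker lists, those past the threshold in both clones were to be named, and the others given were chosen after their values were seen. A few genes of these lists are not reported here and enter no count of a list. Alternatives covered scaling, the filter, halved counts, DESeq2, limma-voom, each library left out and the length used for levels.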

Additional observations from a re-analysis of the deposited data

Results flagged for a closer look

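Between the NOCT-KO clones, 5 of the 7 tested members differed past the threshold, beside 13.1% of all genes tested. The members were chosen with earlier results of these data known, so these shares are a description only. Both clones carry the same label, and the test was of the difference itself (edgeR, log2 ratio of clone 4 over clone 5). The ratio was 2.83 for C3 (adjusted p = 1.4e-07 at an SE of 0.18), 0.96 for C1S (0.19, adjusted p = 0.00309), 0.96 for CD55 (0.13, adjusted p = 0.000262), 0.56 for CD46 (0.10, adjusted p = 0.00165) and -0.62 for C5 (0.13, adjusted p = 0.00464). The tested genes within 5 Mb of CD46 and of CD55 had a median ratio of 0.47 around each, against -0.00030 for all tested genes with a position. The part of that region in the CD46 and CD55 values was not tested. Each clone is 1 library, so a difference between clones and one between 2 cultures of a clone cannot be told apart.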

How the results depend on the processing

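Over all alternatives with a test for WT over clone 4, C3, C1S and CD55 kept their direction and their side of the threshold. The calls of the clone fits rest on a spread with 1 residual degree of freedom, and the fit without a filter on low counts gave the fewest calls in each. There the members called fell to 3 (C3, C1S and CD55, as with upper-quartile scaling) for WT over clone 4, to 0 for WT over clone 5 and to 2 (C3 and CD55) for clone 4 over clone 5, and over all genes the calls fell from 1502 to 366 for WT over clone 4, from 461 to 29 for WT over clone 5 and from 1723 to 496 between the clones. The cause was not tested. DESeq2 called 955, 298 and 1139 genes in these comparisons. For WT over clone 5, upper-quartile scaling gave 217 genes and a filter set by 3 groups, chosen after seeing the data, gave 270. The members called for WT over clone 5 fell from 2 to 1 (CD59) with upper-quartile scaling, DESeq2, limma-voom, a filter set by 3 groups and without clone 4. Other complement genes called for WT over clone 4 fell from 4 to 2 (CLU and C5AR1) with upper-quartile scaling, DESeq2 and a filter set by 3 groups and to 1 (C5AR1) without the filter, and between the clones from 3 to 1 (C5AR1) without the filter. Scaling by total counts moved the split of higher and lower genes for WT over clone 4 from 791 and 711 to 989 and 563. For WT over clone 5 the split moved from 227 and 234 to 263 and 190. The median log2 ratios of all genes under this scaling were 0.066 and 0.040, against 0.011 and 0.0044 in the main fits.

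For WT over NOCT-KO, leaving out a clone decided the result. Without clone 4 1 member was called (CD59), and without clone 5 the calls were 4 members (C3, C1S, CD46 and CD55) and 3 other complement genes (CFD, CLU and C5AR1). Signs turned without clone 4 for C3 (0.64, against -2.19 without clone 5), CD46 (0.23 against -0.34), CFD (0.68 against -1.05) and CLU (0.060 against -0.48), and without clone 5 for C5 (0.30, against -0.32 without clone 4) and C1R (-0.089 against 1.23). C1R turned to -0.016 without WT 2 and C5 to 0.0052 with total counts. For WT over clone 5, CD55 turned to 0.0044 with upper-quartile scaling and 0.018 with total counts. Leaving out a WT library in the clone fit leaves no residual degrees of freedom and gives values without a test, from -2.26 to -2.12 for C3 in WT over clone 4. The median length-scaled level of the members in WT was 3.04 CPM per kb (C5), or 5.64 with the longest transcript. No paired analysis was possible because the WT and NOCT-KO libraries share no replicate number.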
